A study of Mus musculus with 10 samples.

Results

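Macrophages that had engulfed apoptotic cells (Eff+) were compared between a healing skin wound and a culture dish. The comparison uses 5 of the 10 libraries of the series, 3 from the wound and 2 from culture, and members were chosen by their labels, not by any measured value. The 3 wound Eff+ libraries came from macrophages of mouse skin wounds, genotype LysMCreER/mTmG, collected 3 days after wounding in animals that had received tamoxifen for 6 days. The 2 culture Eff+ libraries came from bone marrow derived macrophages of wild type mice, differentiated with GM-CSF for 7 days and then exposed to apoptotic fibroblasts for 12 h. Both kinds of cell were separated from Eff- macrophages by flow cytometry. In LysMCreER/mTmG mice a tamoxifen-activated Cre, expressed from the lysozyme M (Lyz2) locus, changes the colour of a membrane-bound fluorescent reporter, and that locus is active in neutrophils and monocytes as well as in macrophages. The labels do not give age, sex or pooling of animals, or how engulfment was read in the wound. Tissue, genotype, tamoxifen, GM-CSF, the engulfed cell and the count table all differ together between the groups, so their parts cannot be told apart, and only large contrasts are described. The labels do not say whether replicates are separate animals or dishes. The p-values then speak of the scatter among these libraries alone, which may be technical.

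Efferocytosis is the uptake of dying cells. Phagocytes recognise phosphatidylserine on the corpse, directly or through bridging proteins such as Mfge8 and Gas6, and receptors such as Axl, Mertk, Cd36 and CD300 family members start engulfment. The corpse is then broken down in lysosomes, and its cholesterol is stored as ester or exported under control of the LXR receptors. In a skin wound, monocytes enter from the blood and meet damage signals, low oxygen and interferons, all of which set gene programs of their own. GM-CSF, the growth factor used in the culture, drives macrophages towards a lipid-handling, alveolar macrophage-like program that depends on the receptor PPAR gamma.

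Some of those programs have short recognition sequences in promoters, which are shown for 5 genes described further on. Windows of 250 bases upstream of the transcription start came from RefSeq (build GRCm38.p6) and were found for 420 of 567 listed genes. They are printed 5′ to 3′ along the gene with the matches, on either strand, in capitals. The interferon-stimulated response element core was searched as a pair of TTTC blocks with 2 bases of any kind between them. It matched in 52.2% of 23 interferon-stimulated genes with a window and in 3.46% of all 27025 genes with a window. A gene was counted if any of its windows held a match. The window of Isg15, a ubiquitin-like protein (chr4:156200819-156201068, minus strand), held 3 matches and that of Ifit1, which binds viral RNA (chr19:34640639-34640888, plus strand), held 2.
Isg15: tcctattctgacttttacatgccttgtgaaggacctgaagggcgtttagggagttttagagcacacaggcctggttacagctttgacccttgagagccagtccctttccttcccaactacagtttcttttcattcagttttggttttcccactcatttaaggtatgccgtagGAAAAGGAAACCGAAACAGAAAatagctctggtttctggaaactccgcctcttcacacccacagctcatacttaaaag
Ifit1: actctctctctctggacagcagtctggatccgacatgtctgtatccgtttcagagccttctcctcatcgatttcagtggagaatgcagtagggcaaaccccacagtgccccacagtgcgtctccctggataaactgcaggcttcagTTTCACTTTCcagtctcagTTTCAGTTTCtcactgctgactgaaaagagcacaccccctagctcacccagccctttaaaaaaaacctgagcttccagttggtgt
The NF-kB sequence was searched as GGG, 2 bases of any kind and TTTCC. It matched in 30.8% of 13 chemokine genes and 1.65% of all genes with a window. Matches were also found in 13.3% of 15 genes of inflammatory cytokines and enzymes, 9.09% of 22 immediate early genes and 33.3% of 6 keratinocyte genes. The window of Cxcl2, a neutrophil attractant (chr5:90903649-90903898, plus strand), held 2 matches and that of Nfkbia, the inhibitor that NF-kB induces (chr12:55492648-55492897, minus strand), held 1.
Cxcl2: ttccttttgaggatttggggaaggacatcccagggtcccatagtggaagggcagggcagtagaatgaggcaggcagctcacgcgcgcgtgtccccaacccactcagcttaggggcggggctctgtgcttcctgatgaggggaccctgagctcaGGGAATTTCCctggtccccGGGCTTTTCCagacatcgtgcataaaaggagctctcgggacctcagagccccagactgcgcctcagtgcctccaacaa
Nfkbia: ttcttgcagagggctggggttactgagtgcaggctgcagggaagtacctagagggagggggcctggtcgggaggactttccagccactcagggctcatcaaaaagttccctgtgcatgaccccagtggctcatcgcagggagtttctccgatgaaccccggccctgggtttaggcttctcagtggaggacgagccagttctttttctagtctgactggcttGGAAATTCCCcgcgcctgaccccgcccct
The hypoxia response element was searched as ACGTGC and matched in 48.3% of 29 hypoxia and glycolysis genes and 5.63% of all genes with a window. The window of Bnip3, a mitophagy receptor (chr7:138909507-138909756, minus strand), held 2 matches on opposite strands of the same site.
Bnip3: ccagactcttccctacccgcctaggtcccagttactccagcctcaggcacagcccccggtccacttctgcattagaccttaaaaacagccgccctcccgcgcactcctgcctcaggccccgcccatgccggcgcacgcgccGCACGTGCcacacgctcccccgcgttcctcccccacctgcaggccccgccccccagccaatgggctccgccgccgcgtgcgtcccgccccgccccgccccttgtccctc
These genes were picked for display after the matches were seen. The motifs and lists given here are a part of a wider search, in which other motifs and all 29 lists were included. Matches of different motifs overlapped in few windows, at most 2 between any pair of these 3. A match is a description of the letters, not a binding site, and no binding was measured.

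The wound libraries held 49884278 to 57308823 counts and the culture libraries 24707347 and 27261880. Culture Eff+ 1 stood apart in having counts in 35649 genes, 20870 of them with 1 to 9 counts, against 19649 genes in culture Eff+ 2 and 18762 to 19972 in the wound. Replicates correlated at r = 0.969 to 0.984 over genes, and none agreed within sampling noise. Macrophage markers were present in all 5 libraries: Cd68, a lysosomal glycoprotein, was at 1113, 1089 and 1221 CPM in wound replicates 1 to 3 and at 1278 and 1446 CPM in culture replicates 1 and 2. CPM are counts relative to library size, scaled here by the trimmed mean of M-values (TMM), and every series of 5 values below is in that order. Neutrophil granule and surface genes summed to 3.24 to 3.96% of counts in the wound and to 0.182 and 0.277% in culture. Of 24 neutrophil genes 22 passed the filter on low counts, and 21 of those differed by at least 4-fold and were higher in the wound, where 11.7% of all genes tested did; the median log2 fold change was 8.34. Mmp8, neutrophil collagenase, was called the other way at -1.63. Ly6g, a surface protein of neutrophils, was at 40.9, 34.9 and 22.6 CPM in the wound and at 0.113 and 0 in culture, whereas Mpo and Elane, granule enzymes of immature neutrophils, stayed under 1 CPM in every library. The part of this neutrophil signal in the contrasts below was not tested.

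Of 16836 genes tested, 5893 (35.0%) differed between wound and culture Eff+ macrophages at an adjusted p under 0.05 by edgeR's quasi-likelihood test, 2934 (17.4%) higher in the wound and 2959 (17.6%) higher in culture. A large contrast was defined as such a call with a difference of at least 4-fold. There were 1963 large contrasts higher in the wound (11.7%) and 1326 higher in culture (7.88%), and these shares are the background for each gene group below. Abtb1 (log2 fold change 2.001) and Sppl2b (-2.0007) lay just inside that limit, and Cdv3 (-1.9996) and Topbp1 (-1.9994) just outside. The groups did not overlap for 10644 genes (63.2%). Of the large contrasts, 1226 of those higher in the wound and 553 of those higher in culture stayed large with each of the 5 libraries left out in turn. Calls higher in the wound were fewer under scaling by library totals alone, where the median log2 fold change over genes moved from -0.01 to -0.74 and the share of calls higher in the wound from 49.8 to 25.3%. On that scaling 1332 contrasts were large and higher in the wound and 2820 higher in culture. Without culture Eff+ 1, 870 contrasts were large and higher in culture, and without wound Eff+ 2 there were 3828 calls in all.

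**Figure D1:**
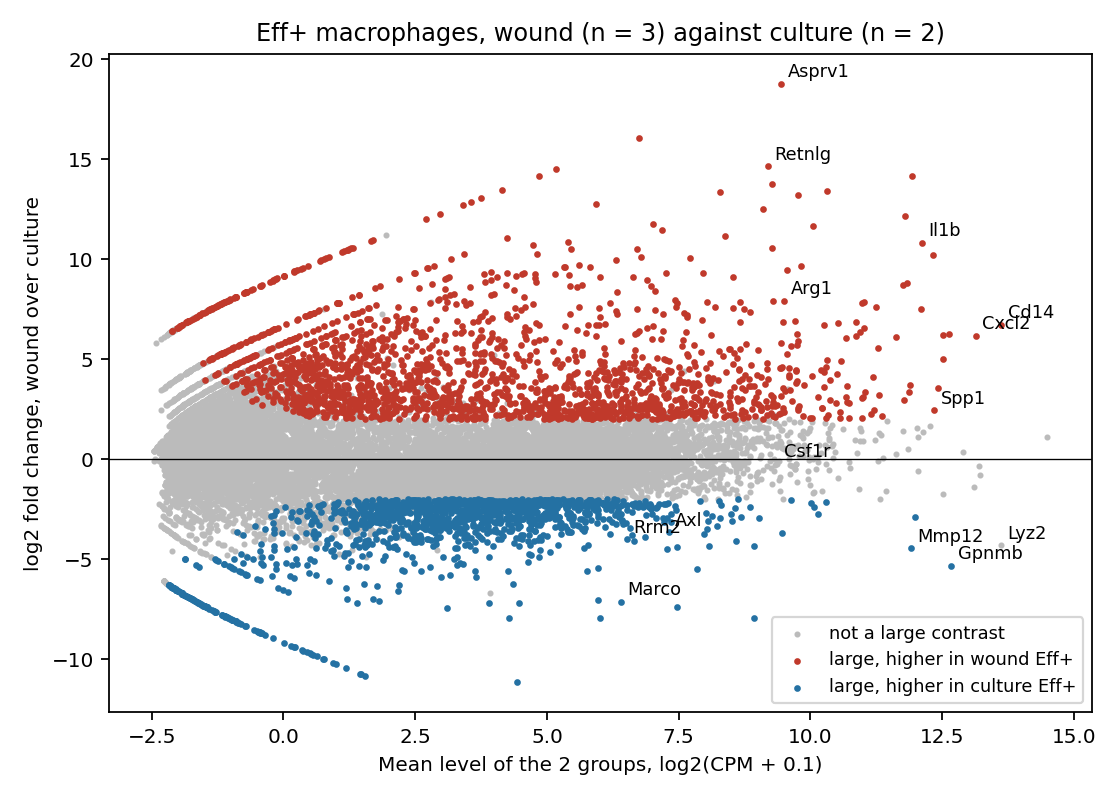
Mean level of the 2 groups, log2(CPM + 0.1), against the log2 fold change of wound over culture for the 16836 genes tested. Red points are the 1963 large contrasts higher in wound Eff+ macrophages, blue points the 1326 higher in culture, and grey points all others. Il1b, Cd14 and Cxcl2 combine a high level with a large difference, as do Gpnmb and Mmp12 on the culture side, and Csf1r lies near 0.

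The plot of all genes shows how far the largest contrasts reach. Of the 10 genes with the largest ratio of mean CPM in favour of the wound, several are known from neutrophils or early inflammatory myeloid cells. Asprv1, a retroviral-like aspartic protease (chr6:86605146-86606692, GRCm39), was at 986, 1936 and 1244 CPM in the wound and had no count in culture, so it was at least 32517-fold higher against a floor of 3 counts over the group. Mrgpra2b, a Mas-related receptor, was at 219.6, 296 and 130.2 CPM with no count in culture, at least 5042-fold higher. S100a9, the partner of S100a8 in calprotectin, was at 7855, 8554 and 6914 against 0.846 and 0 CPM, and its fitted log2 fold change went from 14.15 to 21.27 without culture Eff+ 1. Those values put S100a9 first of all genes per length in the wound, at a mean of 14890 RPKM, CPM divided by gene length in kilobases. S100a8 followed at 14870 RPKM and the co-receptor Cd14 at 14370, against 12.7 and 137 RPKM in culture. The other members of the 10 were Retnlg, Cxcr2, Slfn4, Steap4, G0s2, Il23a and Hdc, each at 388 to 7772 CPM in every wound library and under 3 CPM in both culture libraries. Retnlg had 3 counts in culture in all. Cxcr2 is the receptor for the Cxcl1 and Cxcl2 group of chemokines, and Hdc makes histamine.

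On the culture side the 10 were Bhlhe41, Marco, Mir6236, Ttyh2, Atp6v0d2, Plxdc2, Gpnmb, Chpf2, Maoa and Gga2. Bhlhe41, a repressor found in alveolar macrophages, was at 1.06, 1.82 and 3.36 CPM in the wound and at 512 and 191 in culture, 169-fold higher in culture. Marco, a scavenger receptor, was at 0, 1.46 and 2.15 against 134 and 201 CPM, 139-fold higher. Atp6v0d2, a subunit of the lysosomal proton pump, was at 4.39, 13.1 and 12.4 against 205 and 692 CPM, 45.0-fold higher. Gpnmb, a lysosomal glycoprotein of lipid-laden macrophages (chr6:49013480-49047863, GRCm39), was at 175, 179.9 and 583 against 8793 and 16559 CPM, 40.5-fold higher (log2 fold change -5.34, SE 0.69, adjusted p = 0.00194). The rule that chose them required that the groups do not overlap. Mir6236 differed most between the culture replicates, at 229 and 18.1 CPM, and its log2 fold change went from -7.04 to -4.30 without culture Eff+ 1. In culture the highest level per length was that of Lyz2, at 18170 RPKM, followed by the ferritin light chain Ftl1 at 4963 and galectin Lgals3 at 4859.

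Genes of inflammation were higher in the wound almost throughout. Of the 20 inflammatory cytokines and enzymes listed, all passed the filter, 18 were large and higher in the wound and none was called higher in culture. The median log2 fold change was 5.89 against -0.01 over all genes tested. Il1b, the main secreted product of the inflammasome (chr2:129206490-129213059, GRCm39), was at 8919.8, 9129 and 8576 CPM in the wound and at 5.69 and 4.20 in culture, 1794-fold higher (log2 fold change 10.81, SE 0.52, adjusted p = 0.000218). The 3 wound libraries were within a narrow band of each other and far above both culture libraries. Tnf was at 727, 3923 and 2654 against 27.0 and 20.0 CPM, so wound Eff+ 1 was lowest of its group but still did not overlap culture. Clec4e, a receptor for mycobacterial glycolipid and for dead-cell products, was at 7734, 14504 and 12268 against 181 and 126 CPM. The prostaglandin synthase Ptgs2 was 224-fold higher, the itaconate-producing enzyme Acod1 72.5-fold and the inflammasome sensor Nlrp3 38.3-fold. Inhibitors moved in the same direction: the interleukin 1 receptor antagonist Il1rn was 9.22-fold higher (3642, 5658 and 4393 against 469.6 and 521 CPM), and Il10 was 103-fold higher (82.7, 82.5 and 76.0 against 1.21 and 0.345 CPM). The 2 members without a call were Il12b (0.288, 0.228 and 2.45 against 0.197 and 3.13 CPM) and the pentraxin Ptx3 (3.89, 7.69 and 8.67 against 15.9 and 4.11 CPM).

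Chemokines were large only on the wound side. Of 19 ligands, all tested, 10 were large and higher in the wound, 2 were called with a smaller difference and 7 were not called, with a median log2 fold change of 2.26. Cxcl2 was at 10484, 23389 and 19383 CPM in the wound against 289.9 and 209.6 in culture, 71.1-fold higher (log2 fold change 6.15, SE 0.59, adjusted p = 0.000803). Ccl3 and Ccl4, attractants of monocytes and T cells, were 47.4- and 92.9-fold higher. Ccl8, a monocyte attractant, was at 322, 134 and 206 against 0.0282 and 0.374 CPM. By contrast Ccl2, the main ligand of Ccr2, was at 895, 550.2 and 704 against 985 and 803 CPM, a log2 fold change of -0.32 with a 95% interval from -1.04 to 0.40. Ccl6 was high in both settings, at 4628, 2594 and 2876 against 2371 and 7853 CPM.

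Genes of the immediate early response, which switch on within minutes of a stimulus, were higher in the wound. Of 27, all tested, 23 were large and higher in the wound, and the median log2 fold change was 3.23. Nfkbia was at 7631, 16441 and 13654 against 177 and 151 CPM, 76.8-fold higher (log2 fold change 6.26, SE 0.56, adjusted p = 0.000648). Dusp1, a phosphatase that ends MAP kinase signalling, was at 11344, 9819 and 9288 against 684 and 1017 CPM, and Zfp36, which destabilises cytokine mRNAs, at 3731, 4837 and 4738 against 180.4 and 335. The orphan receptor Nr4a1 was 118-fold higher. Egr2 did not share the difference, at 145, 122 and 186 against 129 and 166 CPM. Heat shock genes, which encode chaperones, were divided: of 14, 2 were large and higher in the wound (Hspa1a and Hspa1b), 4 were called higher by less than 4-fold, 4 were called higher in culture, and the median log2 fold change was 0.72. Hspa1a was at 23.5, 64.9 and 133 against 0.564 and 2.01 CPM, while the mitochondrial chaperone Hspd1 was at 58.5, 57.6 and 64.4 against 146 and 210.0. Without culture Eff+ 2, 4 heat shock genes were large and higher in the wound.

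Interferon-stimulated genes were higher in the wound. Of 30, all tested, 27 were large and higher in the wound, 2 were called with a smaller difference and Bst2 was not called. The median log2 fold change of the list was 4.60. Rsad2, the antiviral enzyme viperin, was at 1454, 339.5 and 425 CPM against 4.76 and 3.19 (log2 fold change 7.54, SE 0.91, adjusted p = 0.00158). Ifit1 was at 1315, 203 and 218 against 3.89 and 2.04 CPM, Isg15 at 977, 247 and 235 against 4.14 and 3.71, and the transcription factor Irf7 at 935, 291 and 408 against 9.73 and 5.18. Wound Eff+ 1 was the highest library for all 4, and the other 2 wound libraries still lay above both culture libraries. The summed share of the list was 1.04% of counts in wound Eff+ 1, 0.290 and 0.328% in wound Eff+ 2 and 3, and 0.0419 and 0.0450% in culture. Without wound Eff+ 1, 25 members of the list were large and higher in the wound. Fewer were without culture Eff+ 1 or culture Eff+ 2, where a single culture library is left. Isg15 and Ifit1, whose upstream windows are printed above, had log2 fold changes of 6.95 and 7.61.

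**Figure D2:**
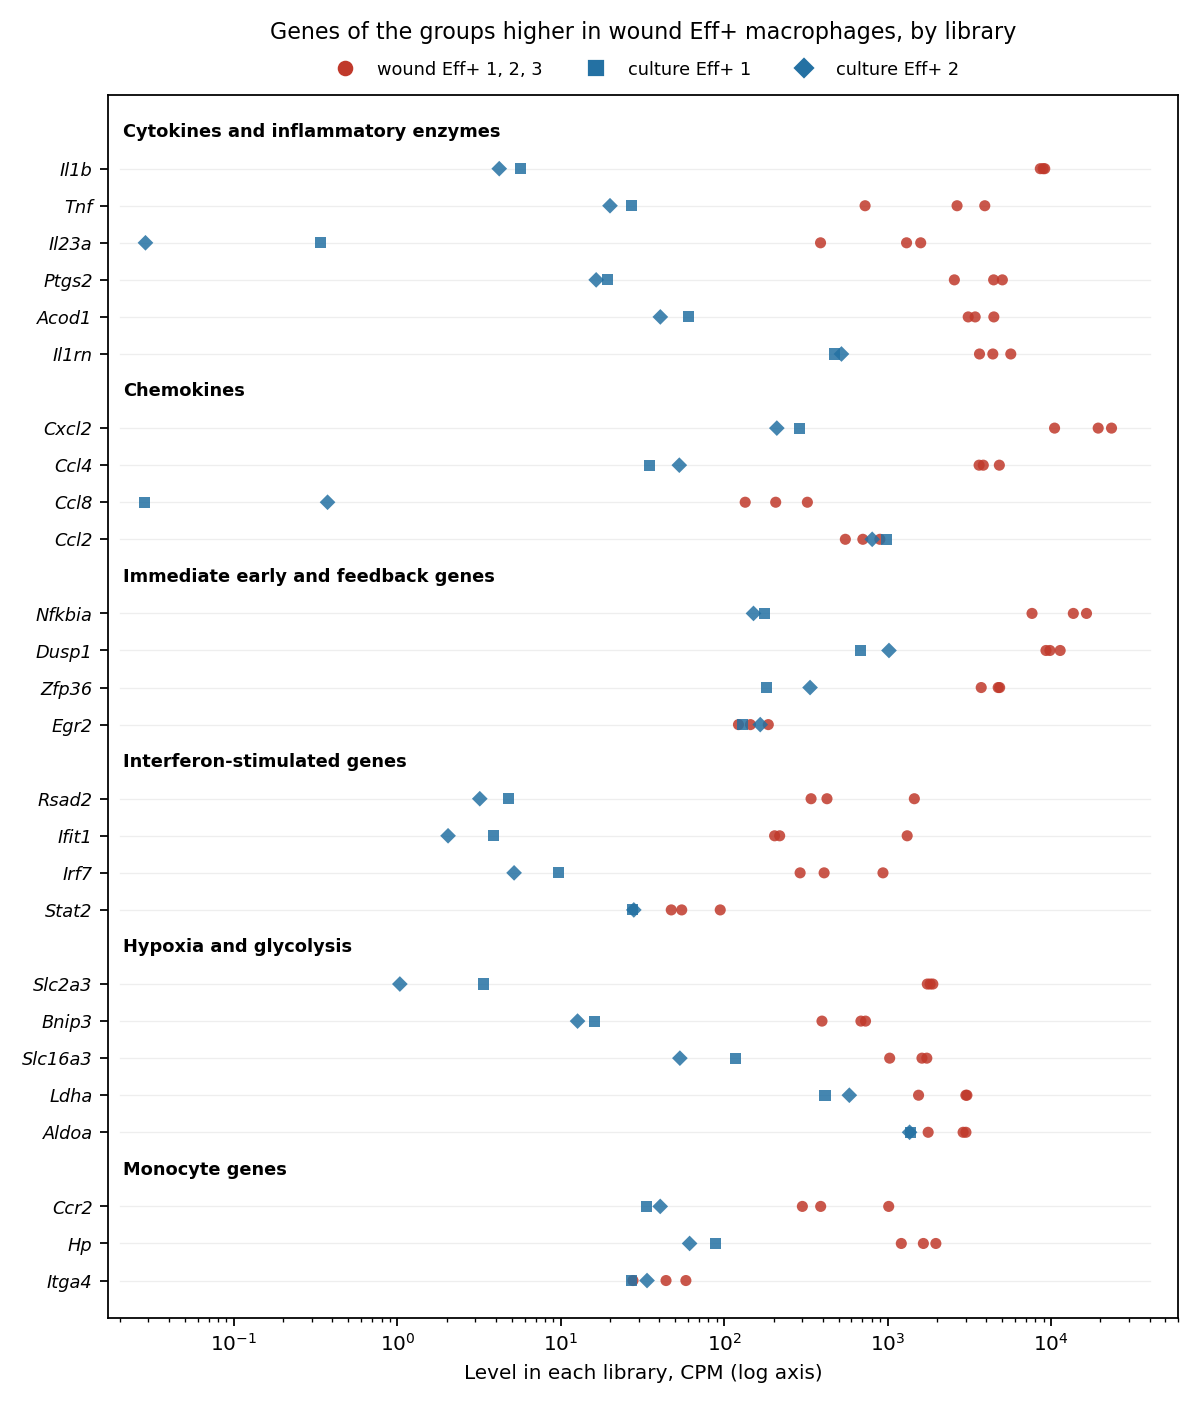
Level of named genes in each Eff+ library in CPM on a log axis, grouped by function; circles are wound Eff+ 1, 2 and 3, the square is culture Eff+ 1 and the diamond culture Eff+ 2. Wound and culture are separated by several orders of magnitude for Il1b, Il23a and Ccl8, and overlap for Ccl2, Egr2 and Itga4.

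The plot of wound-high genes also holds the genes of low oxygen and glycolysis. Of 31 listed, 30 passed the filter, 25 were called higher in the wound, 16 of them large, and none was called higher in culture; the median log2 fold change was 2.30. Slc2a3, a high-affinity glucose transporter, was at 1887, 1746 and 1817 CPM against 3.38 and 1.04, 822-fold higher (log2 fold change 9.68, SE 0.72, adjusted p = 0.000368). Slc2a1, the other main glucose transporter, was at 697, 946 and 1059 against 50.8 and 93.3 CPM. Bnip3, whose window holds the printed element, was at 396, 731 and 685 against 16.1 and 12.7 CPM, and the lactate exporter Slc16a3 at 1027, 1619 and 1734 against 117 and 53.5. Among glycolytic enzymes, Ldha, which makes lactate, was 5.09-fold higher and Gapdh 3.60-fold, and Aldoa (1767, 2890.3 and 3009 against 1384 and 1360.3 CPM) was not called. Hif1a, the oxygen-regulated factor itself, was 4.77-fold higher. Car9, a hypoxia target in many epithelial cells, was at 3.55, 0.797 and 0.933 against 4.54 and 3.94 CPM and was not called. Wound Eff+ 1 had the lowest value of its group for Bnip3, Slc16a3 and Ldha.

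Energy genes of the mitochondrion leaned the other way, but by little. Of 30 nuclear genes of the respiratory chain, none was large, 8 were called higher in culture and none higher in the wound, with a median log2 fold change of -0.52. Cyc1, cytochrome c1, was at 62.2, 57.9 and 64.4 against 206 and 145 CPM, and Sdha, a subunit of complex II, at 164, 148 and 157 against 288 and 324. Of 13 genes encoded by the mitochondrial genome, 11 passed the filter, 4 were called higher in culture and none was large. mt-Cytb was at 1216, 1133 and 792 against 3418 and 4777 CPM, and the median was -1.02. Without culture Eff+ 1, 2 members were large and higher in culture, and 1 was without wound Eff+ 1. Counts of mt-Co2, mt-Co3, mt-Atp6 and mt-Nd3 were at or under 2.04 CPM in all 5 libraries, so those genes carry no information on level.

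Monocyte genes were higher in the wound. Of 14, all tested, 10 were large and higher in the wound and none was higher in culture, with a median log2 fold change of 4.33. Ccr2, the receptor that brings inflammatory monocytes out of the marrow, was at 1014, 389 and 300.3 against 33.5 and 40.5 CPM, 15.3-fold higher (log2 fold change 3.94, SE 0.62, adjusted p = 0.00405). Haptoglobin Hp was 21.6-fold higher, the coagulation factor F13a1 22.2-fold and the chitinase-like protein Chil3 6.36-fold. Itga4 and Vcan, a monocyte integrin subunit and a matrix proteoglycan, were not called (58.2, 44.0 and 27.6 against 27.0 and 33.7 CPM for Itga4). Neutrophils also express Hp, and the neutrophil signal moved with this list.

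Core macrophage genes were present in both settings. Of 16 identity genes, all tested, 11 were not called (10943 of 16836 over all genes), 3 were large and higher in the wound (Cd14, Lyz1 and Fcgr1), and the median log2 fold change was -0.19. Csf1r, the receptor for the growth factor M-CSF, was at 498, 700.0 and 618 CPM against 507 and 918, a log2 fold change of -0.24 with a 95% interval from -1.03 to 0.56. Adgre1, the F4/80 antigen, was at 520.1, 379.6 and 379 against 362 and 584 CPM (-0.15, interval -0.89 to 0.59), and Cd68 had a log2 fold change of -0.26 (interval -0.88 to 0.37). For these 3 genes the intervals leave out a 4-fold difference in either direction, but not smaller ones. The direction for Csf1r and Adgre1 turned without culture Eff+ 2, to 0.25 and 0.23, and on library totals alone Csf1r was called at -0.95. Cd14, the co-receptor of Toll-like receptor 4, broke from the rest at 26188, 27813 and 20651 against 249 and 227 CPM, 105-fold higher. Fcgr1, the high-affinity receptor for IgG, was 5.22-fold higher and fell under the call without culture Eff+ 1 (adjusted p = 0.0503).

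The lysozyme genes ran in opposite directions. Lyz2, the locus that carries the Cre driver in the wound mice, was at 5.28, 3630.2 and 9.63 CPM in the wound and at 9966 and 37850.0 in culture. The log2 fold change was -4.30 with an SE of 2.32 and an adjusted p of 0.193, and without wound Eff+ 2 it was -11.61 (adjusted p = 0.00586). Its neighbour and close paralogue Lyz1 (both on chr10, GRCm39) was at 603, 191 and 359.8 against 0.761 and 4.05 CPM. Reads of such similar genes can be assigned to either copy, so the split between them is uncertain. In every wound library the counted level of Lyz1 and Lyz2 together was below that of Lyz2 alone in either culture library (9966 and 37850.0 CPM). What the assignment of reads contributes to these levels was not tested. What the genotype, with its Cre driver at this locus, contributes to the Lyz2 difference was not tested.

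Genes tied to GM-CSF were divided between the settings. Of 22 genes of the GM-CSF and PPAR gamma list, 20 passed the filter, 5 were large and higher in culture and 5 large and higher in the wound, and the median log2 fold change was 0.06. Higher in culture were Marco, Atp6v0d2, the lipoprotein lipase Lpl (128, 96.0 and 82.1 against 1311 and 1317 CPM), the fatty acid binding protein Fabp4 and the cytokine-signalling inhibitor Socs2, of which 3 stayed large without culture Eff+ 2. Higher in the wound were Cd9, Olr1, Car4, Siglecf and Cish. Olr1, a receptor for oxidised lipoprotein, was at 125, 291 and 265 against 10.7 and 9.12 CPM. The receptors themselves lay close together: Csf2ra was at 632, 692 and 596 against 698 and 552 CPM (log2 fold change 0.03, interval -0.58 to 0.65) and Csf2rb had 0.09 (interval -0.87 to 1.05). Pparg was low in both, at 13.9, 7.74 and 8.53 against 11.2 and 12.0 CPM.

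Receptors and bridging proteins of apoptotic cells included large contrasts in both directions. Of 28 receptors and bridging proteins, 26 passed the filter, 3 were large and higher in culture, 2 large and higher in the wound and 15 not called, and the median log2 fold change was -0.58. Mfge8, which bridges phosphatidylserine to integrins, was at 15.8, 10.9 and 22.0 CPM in the wound and at 216 and 455 in culture, 20.7-fold higher in culture (log2 fold change -4.37, SE 0.44, adjusted p = 0.000926). Axl, a receptor kinase that binds Gas6, was at 17.5, 20.3 and 31.6 against 273 and 314 CPM, 12.7-fold higher in culture. Scarf1, a scavenger receptor that binds C1q, was 4.54-fold higher in culture and lost its call without culture Eff+ 2 (adjusted p = 0.0658). On the wound side, thrombospondin Thbs1, a bridge to Cd36 and integrins, was at 6200.2, 7159.6 and 7880.5 against 593 and 506 CPM, 12.9-fold higher, and the phospholipid receptor Cd300lf was at 1537, 1368 and 1037 against 124 and 96.2, 12.0-fold higher. Each direction thus held both a bridging protein and a receptor.

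Other efferocytosis receptors differed by less. Cd36, which binds oxidised lipid and thrombospondin, was at 171, 213 and 484 against 1021 and 1247 CPM, a log2 fold change of -1.97 that was called (adjusted p = 0.0171) but lost its call without wound Eff+ 2 (0.077) or culture Eff+ 2 (0.0637). Mertk, the receptor most studied in macrophage efferocytosis, was at 16.5, 6.90 and 18.1 against 23.9 and 41.6 CPM and was not called (log2 fold change -1.24, interval -2.31 to -0.17, adjusted p = 0.0712). Timd4, a phosphatidylserine receptor of resident macrophages, and Tyro3 stayed at or under 0.513 CPM in all libraries, too few counts to compare. C1qa, a complement bridge, was at 301, 223 and 285 against 112 and 414 CPM, and culture replicates lay on both sides of the wound range. Its log2 fold change was 0.03, -0.65 without culture Eff+ 1 and 1.26 without culture Eff+ 2, the last with a call (adjusted p = 0.0362). On library totals alone 6 members of the list were large and higher in culture, and without culture Eff+ 1 5 were, while without culture Eff+ 2 4 were large and higher in the wound.

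Lysosomal genes were called about as often as all genes tested. Of 35 enzymes and proton pump genes, all tested, 1 was large and higher in the wound, 2 were large and higher in culture and 22 were not called, with a median log2 fold change of -0.33. Lipa, the acid lipase that frees cholesterol from engulfed esters, was at 299, 293 and 285 CPM against 1673 and 2272, 6.75-fold higher in culture (log2 fold change -2.75, SE 0.28, adjusted p = 0.000926). Gaa, the acid glucosidase, was 4.23-fold higher in culture, and Gla, the alpha-galactosidase, 4.34-fold higher in the wound (542, 548 and 512 against 118 and 127 CPM). The membrane proteins Lamp1 and Lamp2 were called in opposite directions, Lamp1 at 607, 440.3 and 467 against 1363 and 1879.9 and Lamp2 at 2259, 1869 and 1689 against 420.4 and 681 CPM. Cathepsin Ctsb was high in both, at 6899.5, 8792 and 9483 against 8862 and 12212 CPM. On library totals alone 5 were higher in culture, and without wound Eff+ 1 or wound Eff+ 2 only 1 was, while without culture Eff+ 2 3 were higher in the wound.

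Of 17 LXR target and efflux genes, 15 passed the filter, 4 were large and higher in the wound and 1 higher in culture, with a median log2 fold change of 0.12. Abca1, the cholesterol exporter, was at 147, 254 and 278 against 49.6 and 57.0 CPM, 4.24-fold higher in the wound. The phospholipid transfer protein Pltp (85.2, 71.0 and 98.3 against 10.7 and 15.3 CPM) and Mylip, a ubiquitin ligase (56.7 to 62.4 CPM, 4.25-fold), were also higher in the wound, with Apoc1, which was at most at 2.06 CPM. Soat1, which esterifies cholesterol for storage, was at 318, 381 and 416 against 2382 and 993 CPM, 4.54-fold higher in culture. Without culture Eff+ 1 only 1 of the 4 wound members stayed large, as on library totals alone, and Soat1 went from -2.18 to -1.45; without wound Eff+ 1 no member was large and higher in culture. Apoe, which carries exported lipid, was at 6895, 4509 and 5949.7 CPM in the wound and at 236 and 5134 in culture, so its log2 fold change of 1.11 had a 95% interval from -1.31 to 3.53.

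Sterol synthesis genes, which cells switch off when cholesterol is plentiful, were mostly not called. Of 22, all tested, 4 were large and higher in culture, 1 was large and higher in the wound and 17 were not called, with a median log2 fold change of -0.29. Lss, lanosterol synthase, was at 0.528, 1.32 and 2.94 against 16.7 and 22.6 CPM. Sqle and Dhcr7 were also higher in culture, and each lost its call without culture Eff+ 2 (adjusted p = 0.0914 and 0.125), leaving 2. Without wound Eff+ 2, 2 were also left, and the count higher in the wound was 0 without wound Eff+ 1 or culture Eff+ 1 and 2 without wound Eff+ 3 or culture Eff+ 2. Sc5d, a desaturase, was at 132, 107 and 91.5 against 13.5 and 38.5 CPM.

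Growth factors and proteases of repair moved in both directions. Of 27, 26 passed the filter, 8 were large and higher in the wound and 4 large and higher in culture, with a median log2 fold change of 1.10. Mmp12, macrophage elastase, was at 118, 277 and 609 CPM against 8702 and 5979.9, 21.9-fold higher in culture (log2 fold change -4.45, SE 0.68, adjusted p = 0.00358). Igf1, a growth factor for fibroblasts and keratinocytes, was at 46.3, 28.8 and 31.1 against 322 and 613 CPM, 13.2-fold higher in culture, and Mmp14 and Tgfb1 were the other 2 higher there. On the wound side, tissue factor F3, which starts clotting, was at 151, 217 and 249 against 2.11 and 3.16 CPM, 78.0-fold higher. The epidermal growth factor family members Areg (7.51, 24.3 and 26.0 against 0.282 and 0.0288 CPM) and Ereg (10.1, 40.7 and 40.1 against 0.310 and 0.460) were higher in the wound, as was Vegfa (35.5, 27.6 and 35.9 against 6.29 and 0.978). Plaur, the urokinase receptor, was 4.73-fold higher, and Serpinb2, a urokinase inhibitor, 4.74-fold, the last without a call when any of wound Eff+ 2, wound Eff+ 3, culture Eff+ 1 or culture Eff+ 2 was left out (adjusted p = 0.0586 to 0.138). On library totals alone 5 members were large and higher in the wound.

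Genes of alternative activation, tied to repair and to the cytokines IL-4 and IL-13, were more often higher in the wound. Of 22, all tested, 12 were large and higher in the wound and 1 higher in culture, with a median log2 fold change of 2.29. Arg1, arginase, was at 880.1, 1048 and 2383 CPM against 6.71 and 5.29, 239-fold higher in the wound (log2 fold change 7.90, SE 0.68, adjusted p = 0.000603). Tgm2, a transglutaminase, was at 361, 605 and 519.9 against 18.7 and 23.1 CPM, 23.7-fold higher. Osteopontin Spp1 was 5.42-fold higher (6986, 10573 and 8715 against 698 and 2534 CPM) and lost its call without wound Eff+ 2 or wound Eff+ 3 (adjusted p = 0.071 and 0.0511). Gpnmb was the member higher in culture, and 2 members were without wound Eff+ 1. The mannose receptor Mrc1 was at 299, 219 and 208 against 92.8 and 408 CPM, and the lipid receptor Trem2 at 135, 104 and 163 against 150.2 and 254, neither called.

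Cell division genes were higher in culture. Of 30 cell cycle genes, all tested, 19 were large and higher in culture, 5 more were called higher by less than 4-fold, none was higher in the wound, and the median log2 fold change was -2.46. Rrm2, a subunit of the enzyme that makes deoxynucleotides, was at 14.0, 6.37 and 11.8 CPM against 206 and 139, 16.1-fold higher in culture (log2 fold change -4.01, SE 0.39, adjusted p = 0.000816). The replication helicase genes Mcm6 (18.5, 15.1 and 25.9 against 150.0 and 125 CPM) and Mcm3 (18.7, 16.4 and 16.1 against 101 and 82.4) were 6.92- and 5.37-fold higher. The proliferation marker Mki67 was at 17.5, 24.6 and 21.7 against 58.6 and 79.9 CPM, and the topoisomerase Top2a at 11.1, 4.92 and 13.3 against 52.3 and 69.5. Pcna, which also serves DNA repair, was not called, at 62.4, 73.1 and 62.1 against 92.4 and 88.5 CPM. Between 17 and 21 members were large with any 1 library left out. In bulk RNA, fewer dividing cells and less message per cell cannot be told apart, which holds for every group here.

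**Figure D3:**
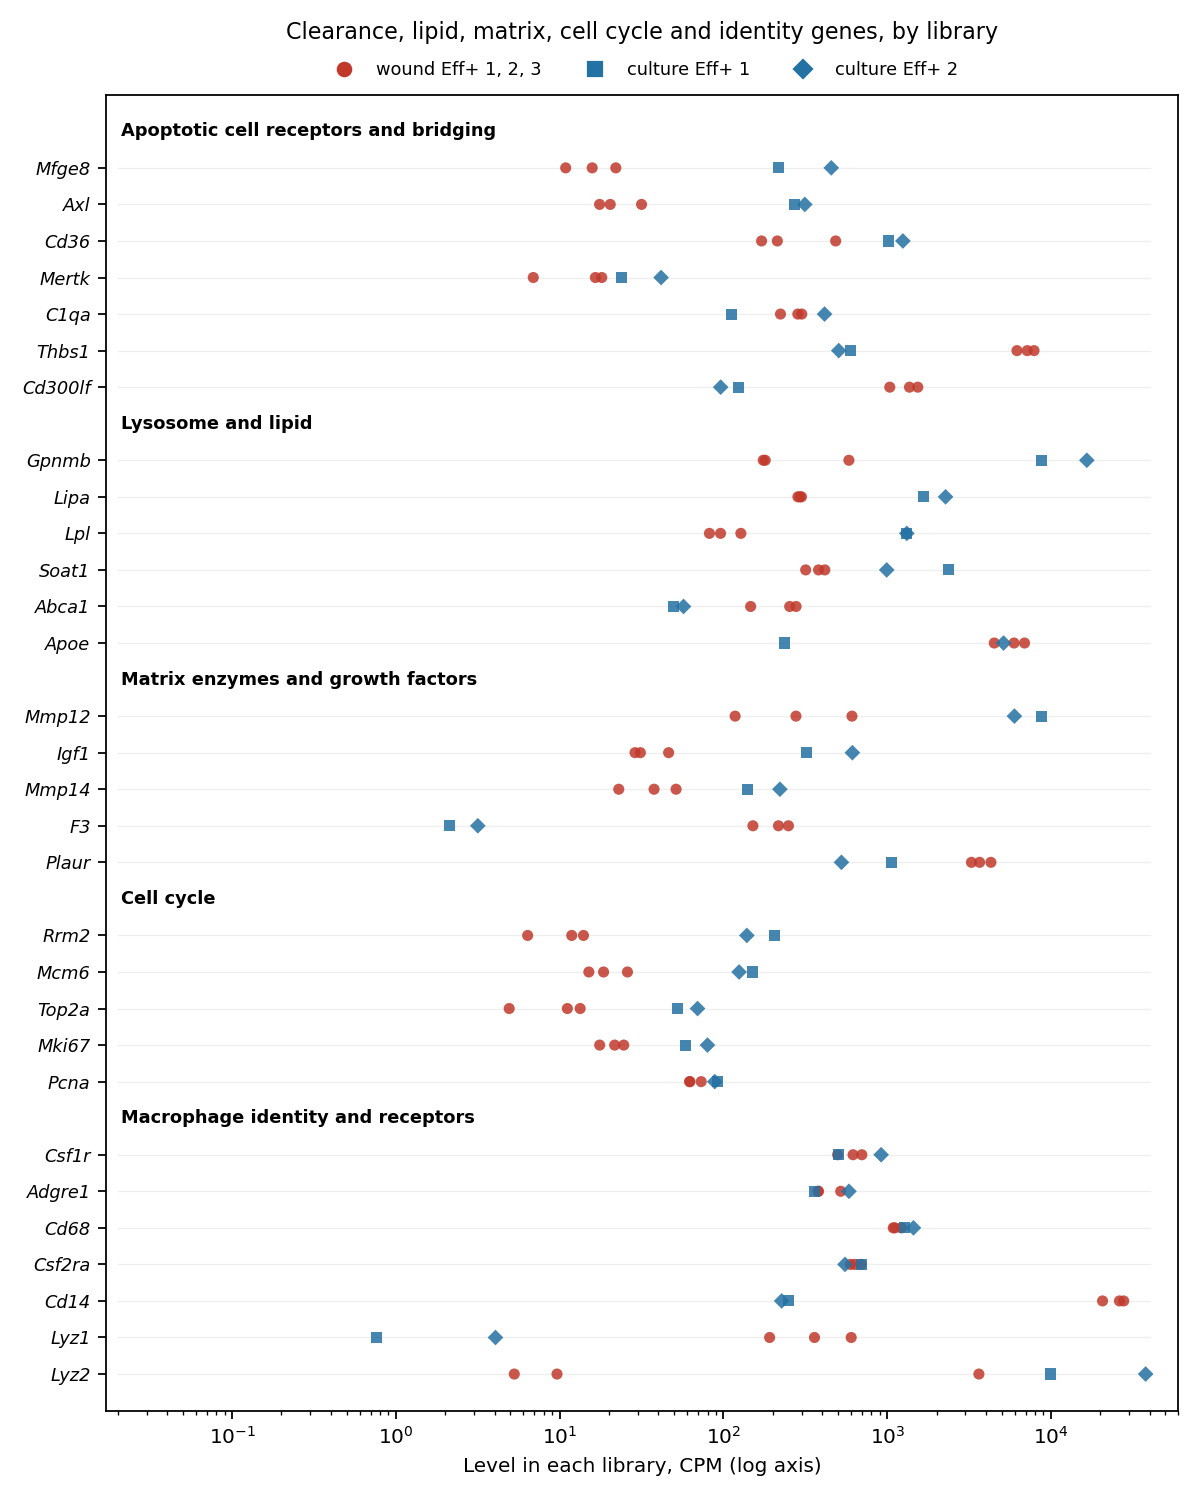
Level of named clearance, lipid, matrix, cell cycle and identity genes in each Eff+ library in CPM on a log axis; circles are wound Eff+ 1, 2 and 3, the square is culture Eff+ 1 and the diamond culture Eff+ 2. Mfge8, Axl, Gpnmb, Mmp12 and Rrm2 lie higher in both culture libraries, Csf1r, Adgre1 and Csf2ra overlap, and the wound values of Lyz2 are spread from 5.28 to 3630.2 CPM.

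The plot of clearance and culture-high genes can be read beside antigen presentation. Of 12 genes of the MHC class II pathway, all tested, 1 was large and higher in the wound and 9 were not called, with a median log2 fold change of 0.39. H2-Eb1, a class II beta chain, was at 860.0, 786 and 438 CPM against 125 and 61.1, 7.46-fold higher (log2 fold change 2.90, SE 0.48, adjusted p = 0.00457). H2-Aa was at 1271, 1112 and 626 against 431 and 139.9 CPM, called at 3.51-fold but not without wound Eff+ 1, wound Eff+ 2 or culture Eff+ 2 (adjusted p = 0.07 to 0.123). The invariant chain Cd74 was high in both, at 5847, 4534 and 2744 against 3765 and 2307 CPM. Without culture Eff+ 1, 4 members were large, and 2 were without wound Eff+ 3 or culture Eff+ 2. Of 13 dendritic cell genes, all tested, 2 were large and higher in the wound (Cd209a, without a call when wound Eff+ 2 or culture Eff+ 2 was left out, adjusted p = 0.0546 and 0.055, and Xcr1), 11 were not called, and the median was 0.40. Of the dendritic cell list, 4 were large and higher in the wound without culture Eff+ 1 and 1 without wound Eff+ 2, and 1 was large and higher in culture without wound Eff+ 1, wound Eff+ 3 or culture Eff+ 2. No member of the dendritic cell list was above 17.4 CPM in any Eff+ library.

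Among iron and haem genes, large contrasts were limited to globins. Of 16 iron and haem genes, all tested, 4 were large and higher in the wound, and the median log2 fold change was 1.37. Hba-a1 was at 46.9, 104 and 65.4 CPM and Hba-a2 at 22.7, 45.0 and 38.2, with no count in culture, at least 1692- and 827-fold higher. Hbb-bs was at 70.2, 170.5 and 126 CPM with 1 count in culture, and Hbb-bt was the other. Reads of the paired globin copies can be split between them, so each value is uncertain. Ferroportin Slc40a1, the iron exporter, was lower in the wound at 242, 153 and 122 against 549 and 397 CPM (called, under 4-fold), and Hmox1, which degrades haem, was not called at 496, 969 and 1608 against 716 and 563. Ferritin heavy chain Fth1 was among the most abundant transcripts in both settings, at 21737, 40577 and 33006 against 6761 and 22185 CPM.

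Markers of other cells were mostly higher in the wound. Of 28 fibroblast and matrix genes, all tested, 16 were large and higher in the wound and none in culture. The culture cells had been exposed to apoptotic fibroblasts, and what engulfed cells contribute to these levels was not tested. The list summed to 0.105, 0.168 and 0.322% of counts in the wound and to 0.00216 and 0.0361% in culture, and its median log2 fold change was 3.87. Dcn, decorin, was at 79.9, 144 and 186 against 0.818 and 1.67 CPM, and Col3a1 at 229, 499 and 847 against 0.620 and 3.94. Col1a1 was at 163, 499 and 961 against 0.564 and 72.2 CPM and was not called with both culture libraries, while without culture Eff+ 2 it was called at 9.89 (adjusted p = 0.0093). Col1a2 was called at an adjusted p of 0.049, and at 0.0583, 0.095 and 0.0965 without wound Eff+ 1, 2 and 3. Its log2 fold change went from 4.37 to 9.01 without culture Eff+ 2.

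The other lists held few counts. Of 13 keratinocyte genes, 10 passed the filter and 4 were large and higher in the wound (2 without culture Eff+ 1), with a median log2 fold change of 3.05; Sfn was at 13.6, 53.6 and 34.4 against 2.00 and 0.633 CPM and Krt14 at 11.0, 18.0 and 3.78 against 0.0282 and 0. Of 11 muscle and adipocyte genes, 8 passed and 3 were large and higher in the wound, with a median of 2.94, and the skeletal muscle actin Acta1 was at 8.45, 32.7 and 37.4 against 0.0564 and 0.316 CPM. Of 10 endothelial genes, 9 passed, 1 was large in each direction (2 in the wound without wound Eff+ 3) and the median was 2.13. Pecam1, which myeloid cells also express, was at 31.8, 35.0 and 30.4 against 1.27 and 0.0863 CPM (5.57, or 8.48 without culture Eff+ 1), and Vwf at 1.25, 3.64 and 3.82 against 25.2 and 26.9. Of 9 mast cell and basophil genes, 8 passed, 2 were large and higher in the wound and 1 in culture, with a median of 5.71 (4.57 with genes at 0 in a group set to their bound). Cpa3, a mast cell protease, was at 0.768, 29.2 and 15.1 against 0.0564 and 0.0575 CPM, called with all libraries but not without culture Eff+ 1 or 2 (adjusted p = 0.0856 and 0.0862). The other called members, Cma1 and Gata2, also lost their calls, with adjusted p of up to 0.197 and 0.551. Across single libraries left out, 0 (culture Eff+ 2) to 4 (wound Eff+ 1) members were large and higher in the wound. Of 12 lymphocyte genes, 5 passed and 2 were large and higher in the wound (Cd3d and Trac), none without culture Eff+ 2 and 1 without wound Eff+ 2, wound Eff+ 3 or culture Eff+ 1, with a median of 5.05 (3.69 with genes at 0 set to their bound). No lymphocyte gene was above 1.63 CPM, and Cd3e was at 0 in 4 of the 5 libraries.

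**Figure D4:**
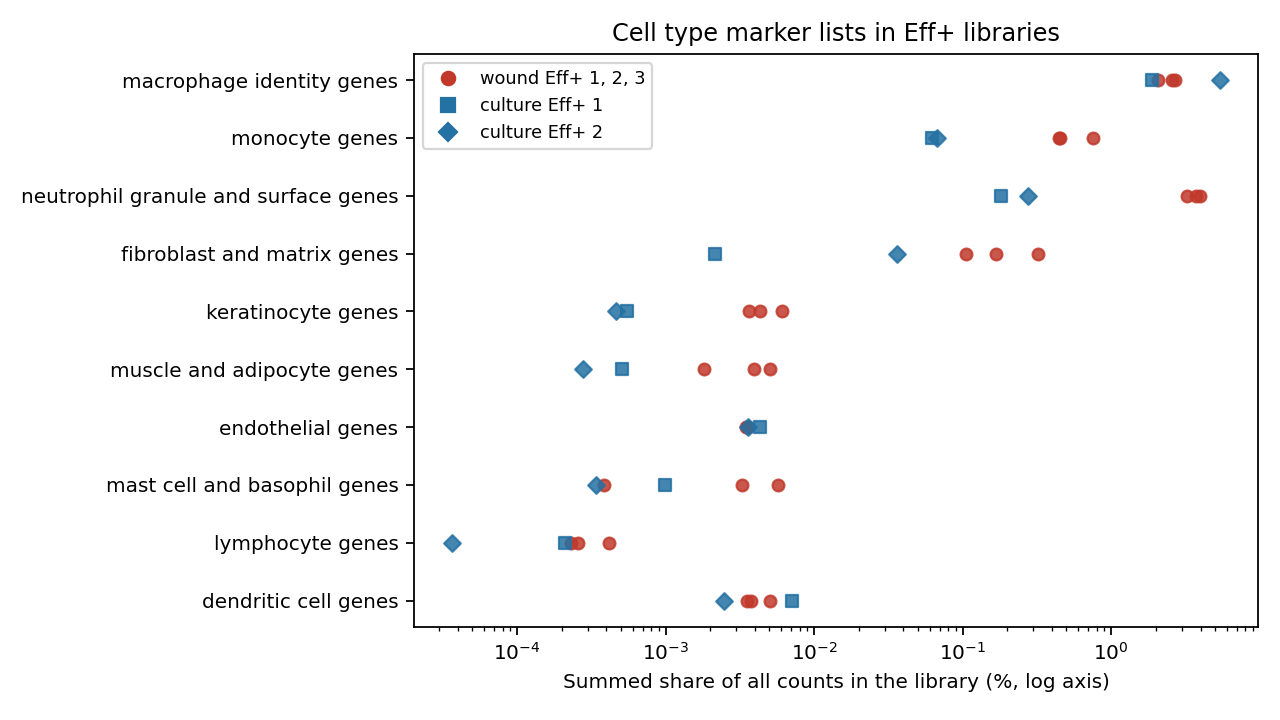
Summed share of all counts, in percent on a log axis, of each cell type marker list in each Eff+ library; circles are wound Eff+ 1, 2 and 3, the square is culture Eff+ 1 and the diamond culture Eff+ 2. Neutrophil and fibroblast lists are higher in all 3 wound libraries, whereas the macrophage identity list lies between 1.90 and 5.41% throughout. That list holds Cd14, far higher in the wound, and Lyz2, higher in both culture libraries, so its sum does not measure macrophage content.

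The plot of marker lists shows which signals move with the groups: neutrophil, fibroblast, keratinocyte, muscle, lymphocyte and monocyte sums are higher in every wound library than in either culture library. As unscaled shares, endothelial sums are lower in every wound library than in either culture library (0.00346 to 0.00358 against 0.00435 and 0.00361% of counts). Dendritic cell and mast cell sums overlap. Unlike CPM, these shares are not scaled by TMM. The TMM factors were 0.8355, 0.7669 and 0.8498 in the wound and 1.4393 and 1.2761 in culture. Divided by them, the endothelial sums are higher in every wound library instead. The unscaled endothelial sum does not stand for its list: 8 of 9 tested members had a higher level in the wound, and Vwf was the 1 that did not. What these signals contribute to the contrasts of single genes was not tested. Sex-linked genes were checked as well. Xist was at 0 counts in 4 libraries and at 5 counts in culture Eff+ 1, and Y-linked genes were present in all 5. Of 5 sex chromosome genes, 4 passed the filter and 2 were large and higher in the wound, Ddx3y (371, 318 and 269 against 59.7 and 69.8 CPM) and Eif2s3y (194, 197 and 159 against 21.7 and 43.4), while neither was large on library totals alone and Uty was at 27.7, 25.8 and 28.6 against 28.8 and 27.7, and the median was 1.17.

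**Figure D5:**
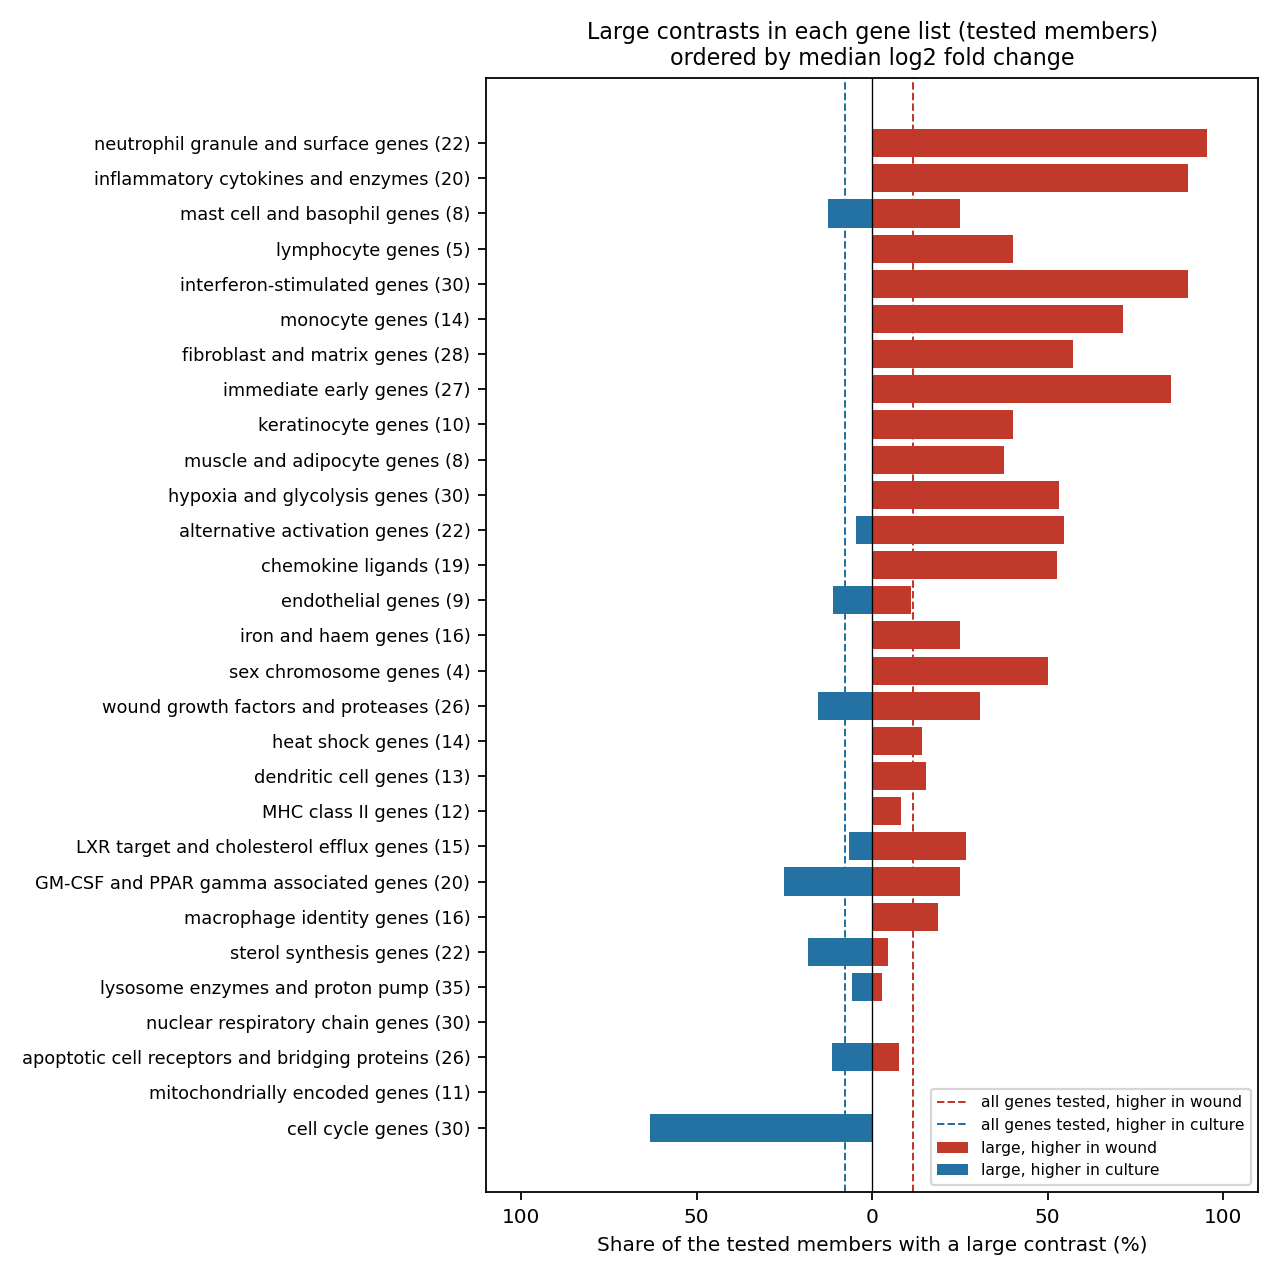
Share of the tested members of each gene list, in percent, with a large contrast higher in the wound (red, to the right) or in culture (blue, to the left), with the number tested in brackets and lists ordered by median log2 fold change. Dashed lines mark the shares over all genes tested, 11.7% and 7.88%; inflammatory, interferon, immediate early and neutrophil lists reach far beyond the first and the cell cycle list beyond the second.

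The chart of list shares covers all 29 lists described above. Members were called from the same libraries that set the background lines, and lists were chosen with earlier results of these data known.

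The same contrast was then taken in the Eff- libraries of the same 2 settings (3 wound, 2 culture), in a fit of all 10 libraries. In that fit 4626 genes differed between wound and culture in Eff+ cells and 2435 in Eff- cells. Large contrasts numbered 2747 in Eff+ cells, and in Eff- cells 775 were higher in the wound and 739 in culture. The same 1128 genes were large with the same sign in both, and none was large with opposite signs. The difference between the Eff+ and the Eff- contrast was called for 0 of 20270 genes (0%), with a smallest adjusted p of 0.10, although 2222 genes (11.0%) had an unadjusted p under 0.05. DESeq2 called 797. Counts also rested on single libraries: without culture Eff- 2 the quasi-likelihood test called 2009 genes, and without culture Eff+ 1 it called 7 and without culture Eff- 1 it called 4. Whether the contrasts differ between Eff+ and Eff- cells thus depended on the tool, on the replicate block and on single libraries. None above is called particular to engulfing cells.

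The 2 contrasts of that fit can be set side by side for the groups described. The median log2 fold change of the inflammatory cytokines was 5.89 in Eff+ cells and 4.05 in Eff- cells, that of interferon-stimulated genes 4.62 and 3.48, and that of hypoxia and glycolysis genes 2.31 and 1.96. For neutrophil genes the medians were 8.38 and 3.83, with summed shares of 3.24 to 3.96% in wound Eff+ and 0.566 to 1.04% in wound Eff- libraries. Cell cycle genes had medians of -2.46 and -2.11. Other lists did not keep this order. Chemokine ligands had 2.27 in Eff+ and 3.51 in Eff- cells. The sign of the median differed for apoptotic cell receptors and bridging proteins (-0.58 and 0.47) and macrophage identity genes (-0.18 and 0.73). It also differed for nuclear respiratory chain (-0.505 and 0.25), dendritic cell (0.40 and -2.14) and keratinocyte genes (3.10 and -4.29). Il1b had a log2 fold change of 6.89 in Eff- cells, 3.94 less than in Eff+ cells (adjusted p of the difference 0.10 by edgeR's quasi-likelihood test and 1.97e-23 by DESeq2). S100a8 had 6.88, 3.32 less (0.159 by edgeR and 7.72e-06 by DESeq2). With the replicate block, edgeR's adjusted p of the difference was 0.00879 for Il1b and 0.0199 for S100a8. Axl was at -3.62, Mfge8 at -3.36 and Rrm2 at -4.02 in Eff- cells. Their differences, Eff+ minus Eff-, were -0.04 (SE 0.51), -1.02 (SE 0.74) and 0.03 (SE 0.97), with adjusted p of 0.638 to 1 by edgeR, which does not show that they are alike. Arg1 was at 10.13 in Eff- cells, 2.22 above its Eff+ value (adjusted p = 0.385 by edgeR, 0.0671 by edgeR with the block and 0.101 by DESeq2). Axl, Mfge8 and Rrm2 were not called with the block either.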

How the data were processed

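Reads of polyA RNA were processed by the authors before deposit: adapters were trimmed with Trimmomatic 0.39 and the genome build was GRCm39, per the submitters' processing notes. The deposited values are raw counts per gene. Those of the wound libraries were made with featureCounts 1.6.0 and Ensembl release 106 without a strand option, per the file headers, so overlapping and antisense genes cannot be told apart. How the culture counts were made is not stated in the sources read. The 2 tables were joined on 55414 gene identifiers, of which 52081 had a symbol, holding at least 99.88% of the counts of each library, and 4 columns that match no sample were not used. Here the counts were scaled by TMM, filtered with filterByExpr and tested with edgeR 4.0.16 (quasi-likelihood test, Benjamini-Hochberg adjustment over all genes tested, R 4.3.3), which was tested on simulated data. Groups came from the labels. Depth bounds precision at low counts, and the floor of 3 counts covers counting error only.

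The members and the 29 gene lists were chosen with earlier results of these data known. Genes named by rule were the 10 of largest fold in each direction with at least 50 CPM in the higher group and no overlap, up to 3 large contrasts per list and direction by mean CPM, and 22 fixed genes. Other members named were chosen after their values were seen. Alternatives were other scalings, DESeq2 1.42.0, limma-voom 3.58.1, other filters, a replicate block and leaving out each library. Counting the large contrasts of each list under them was added after seeing the data. The genome itself was not used here. Some genes of the lists are counted but not reported by name here.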

Additional observations from a re-analysis of the deposited data

Results flagged for a closer look

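The wound against culture contrast of Cd36, a scavenger receptor for oxidised lipid, had opposite signs in Eff+ and Eff- macrophages. It was flagged because wound and culture libraries did not overlap in either kind of cell, in opposite directions, with only 2 culture libraries in each. Only the genes named by rule were screened for this, not all genes tested. Its log2 fold change was -1.97 in Eff+ cells and 0.84 in Eff- cells, a difference of -2.82 that did not pass the adjustment over all genes by edgeR's quasi-likelihood test (adjusted p = 0.226). DESeq2 called the difference, at -2.69 with an adjusted p of 0.00807, as did edgeR with the replicate block, at -2.88 with 0.00934.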

How the results depend on the processing

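The 5893 calls became 2959 when a difference above 2-fold was required by glmTreat, 3537 with a replicate block, and 3828 to 5615 with 1 library left out, the lowest without wound Eff+ 2. The 1963 large contrasts higher in the wound became 1136 with at least 10 CPM in 2 libraries and 1648 to 2050 with 1 library left out. The 1326 higher in culture became 685 with that filter, 2820 on library totals only and 870 to 1282 with 1 library left out, the lowest without culture Eff+ 1. The difference between Eff+ and Eff- contrasts, called for 0 genes, was called for 797 by DESeq2, 441 with a replicate block and 0 to 2009 with 1 library left out, the highest without culture Eff- 2. Labels do not say what a replicate number shares. Deviations of same-numbered wound and culture Eff+ libraries correlated at -0.0732, and under the block 1527 and 1108 contrasts were large. Between Eff+ and Eff- libraries of one number, deviations correlated at 0.43, 0.03 and 0.25 in the wound. In culture they correlated at 0.73, where 2 pairs give 1 value. Interferon-stimulated genes summed to 1.04, 0.290 and 0.328% of counts in wound Eff+ and to 0.721, 0.279 and 0.324% in wound Eff-. Culture Eff+ 1 and Eff- 1 had counts in 35649 and 44836 genes, against 19649 and 18171 in Eff+ 2 and Eff- 2. Whether the numbers are pairs is thus not settled, and the count of 0 comes from the fit without pairs. With a block on the number within each setting, edgeR's quasi-likelihood test called the difference for Il1b (adjusted p = 0.00879), S100a8 (0.0199) and Cd36 (0.00934). With 1 library left out, the log2 fold change of C1qa ranged from -0.65 to 1.26 (negative without culture Eff+ 1, called without culture Eff+ 2), that of Pparg from -0.43 to 0.012 (positive without wound Eff+ 2), that of Csf1r from -0.63 to 0.25 and that of Adgre1 from -0.48 to 0.23, the last 2 positive without culture Eff+ 2. C1qa was at -0.64 on library totals only. Without culture Eff+ 1, 3 large contrasts took the opposite sign. The stricter filter tests fewer genes (8374); for the other changes the cause was not tested. Where a group is left with 1 library, its scatter is taken to be that of the other groups.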
